A study of Bos taurus with 4 samples.

Results

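Pericytes are the contractile support cells that lie on capillaries inside the basement membrane of the endothelium. Endothelial PDGF-B, acting on the receptor PDGFRB, recruits and holds them, and NOTCH3 keeps them in the mural state. Their tone is set by potassium channels gated by ATP (the pore KCNJ8 with its subunit ABCC9), endothelin receptors, soluble guanylate cyclase, which makes cGMP in answer to nitric oxide, and regulators of G-protein signalling such as RGS5. Smooth muscle cells of larger vessels share much of this set but also make the contractile proteins MYH11 and CNN1. In fat, pericytes sit beside the capillaries that feed the adipocytes.

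The nuclei described here were chosen by marker genes in 3 of the 4 single-nucleus RNA libraries of a study of cattle fat. A nucleus was taken if it had at least 200 detected genes, at least 1 UMI (unique molecular identifier, a count of 1 captured RNA molecule) in at least 2 of the 7 genes RGS5, NOTCH3, KCNJ8, EDNRA, PDE1B, GUCY1B1 and PDGFRB, and 0 UMIs of the 6 genes MYH11, CNN1, PDGFRA, PECAM1, CDH5 and CSF1R. The rule took 100 of the 8786 kept nuclei of these libraries, called pericyte-marker nuclei here, and 8849 nuclei were kept over all 4 libraries. By library they numbered 14 out of 881 (subcutaneous fat, animal 1), 27 out of 6128 (subcutaneous fat, animal 2) and 59 out of 1777 (intramuscular fat, animal 1). The intramuscular library of animal 2 held only 63 kept nuclei, of which 2 met the same conditions, and it is not used in the comparisons.

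The study isolated nuclei from fresh subcutaneous backfat and from intramuscular fat of 2 steers, with 1 library per depot and animal. The steers came from a commercial feedlot, received no experimental treatment, and were of unstated age, breed and diet. The groups used here are the subcutaneous fat of animals 1 and 2 and the intramuscular fat of animal 1, so any p-value measures the spread between these few libraries. Kept nuclei held 1143166, 4009437 and 2719366 UMIs in that order, and the pericyte-marker nuclei 15325, 19601 and 100132. The libraries shared 1, 2 and 1 cell barcodes pairwise. Median depth was 816.5, 551 and 898 UMIs in pericyte-marker nuclei against 847, 518 and 1102.5 in the other nuclei of the same libraries.

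The label pericyte held for only some of these nuclei when each library was clustered on its 2000 most variable genes. A cluster with at least 3 mural markers among its leading genes was found in each of the 3 libraries, and it took 11 of the 14, 9 of the 27 and 25 of the 59 pericyte-marker nuclei. The other 34 nuclei of the intramuscular library lay in adipocyte-like (15), fibroblast and progenitor-like (10) and blood endothelial-like (9) clusters. These were 1.73%, 1.78% and 3.32% of the nuclei of those clusters, against 42.4% of the 59 nuclei of the mural cluster (exact 95% interval 29.6% to 55.9%). With all 4 libraries clustered together, 34 of the 59 nuclei fell in a blood endothelial-like cluster led by FABP4, TMSB10 and TMSB4X. Of the rest, 13 fell in an adipocyte-like cluster led by ADM and CHRDL1 and 12 in a fibroblast and progenitor-like one led by NOVA1 and SCD. The same endothelial-like cluster took 7 of the 14 nuclei of subcutaneous animal 1. The mural cluster of that clustering took 4 of these 14 and 19 of the 27 of animal 2, and held 0 nuclei of the intramuscular library.

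**Figure D1:**
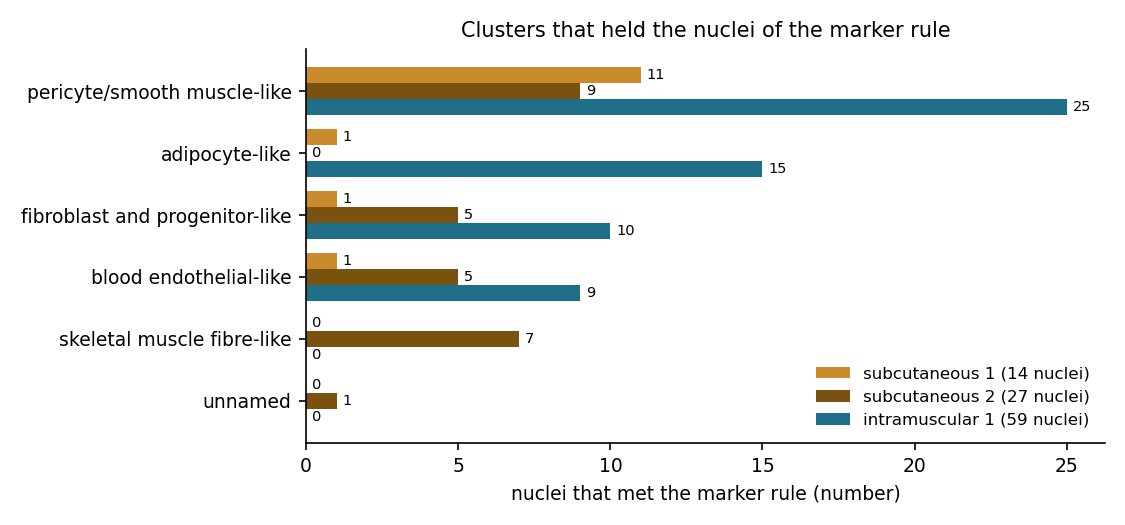
Number of pericyte-marker nuclei (length of each bar) in each kind of cluster, with 1 bar per library. In the intramuscular library 25 nuclei lie in the mural cluster and 34 elsewhere, and in the subcutaneous library of animal 1 the mural cluster holds 11 of 14.

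The 25 intramuscular nuclei inside the mural cluster and the 34 outside it differed in depth. The 25 had a median of 769 UMIs (508 to 1683) and 19517 UMIs in all. The 34 had a median of 1421.5 UMIs, up to 12805, and held 80.5% of all UMIs of the 59 nuclei. The deepest nucleus alone gave 12.8% and the 5 deepest 32.6%. No doublet caller was run. Sums over the 59 nuclei are therefore weighted to nuclei outside the mural cluster, and for some genes the values of both kinds are given.

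Markers of other cell types were present in most of the nuclei. At least 2 adipocyte markers were detected in 53 of the 59 intramuscular nuclei (89.8%, against 95.1% of the other nuclei) and at least 2 fibroblast and progenitor markers in 58 (98.3% against 89.9%). Endothelial markers reached that count in 12 (20.3% against 21.0%), macrophage markers and skeletal muscle fibre markers in 0, and all 18 fibre markers were at 0 UMIs. The rule itself held PECAM1 and CDH5 of the endothelial list, CSF1R of the macrophage list and PDGFRA of the fibroblast list at 0. The counts for these 3 types could therefore only be lowered in the pericyte-marker nuclei, and they do not compare evenly with the other nuclei. PLIN1, the protein that coats the fat droplet of adipocytes, stood at 410 CPM (UMIs of the gene scaled to the same total for every class of nuclei) in the 25 nuclei of the mural cluster, 433 in the cluster's other nuclei, 370 in progenitor-like and 444 in endothelial-like nuclei. In the 34 nuclei elsewhere it stood at 1774 and in adipocyte-like nuclei at 2646. VWF, which endothelial cells make, had 0 UMIs in the 25 nuclei, 124 CPM in the 34 and 1069 in endothelial-like nuclei. All 14 and all 27 nuclei of the subcutaneous libraries carried at least 2 fibre markers, as did 97.9% and 100% of the other nuclei there. These markers took 1.18% and 12.5% of their UMIs against 5.05% and 19.4% in other nuclei. The part of such RNA in the results was not tested.

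The genes of the rule are given as a description, since they chose the nuclei. Most nuclei passed it narrowly: exactly 2 markers were detected in 6 of 14, 19 of 27 and 37 of 59 nuclei. In the intramuscular library 16 nuclei had 3 markers, 3 had 4, 2 had 5 and 1 had 6. Just outside the rule, 206 nuclei of this library had exactly 1 marker and none of the excluded genes, and 53 had at least 2 markers but also an excluded gene, most often CDH5 (34) or PECAM1 (29), the junction proteins of endothelium. In the subcutaneous libraries the excluded gene was most often MYH11, in 26 of 41 and 32 of 44 such nuclei.

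GUCY1B1, the beta subunit of soluble guanylate cyclase, was the marker found most often in the intramuscular library, in 42 of the 59 nuclei. It was also the most widespread elsewhere, in 11.5% of the other nuclei, and in 13.18% of adipocyte-like and 12.21% of endothelial-like ones. EDNRA, an endothelin receptor, was found in 28, NOTCH3 in 21, RGS5 in 19, PDE1B, a calmodulin-dependent phosphodiesterase, in 18, KCNJ8 in 16 and PDGFRB in 6. Each of these was detected in 1.69% to 3.32% of the other nuclei. The commonest pair was EDNRA with GUCY1B1, in 19 nuclei. All 7 markers stood at a higher CPM inside the mural cluster than outside it, where the nuclei were deeper. EDNRA stood at 974 against 223 CPM, NOTCH3 at 564 against 186 and PDGFRB at 102 against 62.0. The cluster was named from a list that includes these markers, so this is a description only. By nuclei with the marker, RGS5 (28% inside, 35.3% outside) and PDGFRB (4% and 14.7%) were less frequent inside. NOTCH3 was alike (36% and 35.3%), and the other markers were more frequent inside.

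The nuclei made up 3.32% of the kept intramuscular nuclei (exact 95% interval 2.54% to 4.26%), 1.59% (0.871% to 2.65%) of those from subcutaneous animal 1 and 0.441% (0.291% to 0.640%) of those from subcutaneous animal 2. The intramuscular share was the highest, and its interval met that of subcutaneous animal 1 and not that of animal 2. These intervals cover the counting of nuclei only and hold no spread between animals, so they do not compare the depots. The subcutaneous mean was 1.01% ± 0.812 (SD, n = 2), 2.31 percentage points lower, with an exact two-sided permutation p of 0.33, the smallest that 3 arrangements of the libraries allow. The whole mural clusters gave another order, with 5.56%, 2.50% and 3.32%, so that the intramuscular share lay 0.709 points under the subcutaneous mean (exact permutation p = 1). These clusters were unlike: both subcutaneous ones had the smooth muscle genes MYH11, ACTA2 and CNN1 among their leading genes, and the intramuscular one had none of these. Nuclei with 0 of the 7 markers made up 6 of 49, 71 of 153 and 15 of 59 of them, so their shares do not count the same kind of nucleus. Leaving out the skeletal muscle fibre-like and unnamed clusters, an alternative chosen after seeing the data, gave 2.28%, 2.19% and 3.32%, a difference of 1.08 points. Counting only nuclei inside the mural cluster, also chosen afterwards, gave 1.25%, 0.147% and 1.41%. The intramuscular share depended on depth and on the number of markers: thinning each nucleus to 500 UMIs gave 1.43%, 0.335% and 2.08% (1.47% to 2.86%), and at least 3 markers 0.908%, 0.131% and 1.24%.

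The main comparison set the 59 intramuscular pericyte-marker nuclei against the 1718 other nuclei of their library, for genes the rule did not use. With 1 library there is no test: the ratio of CPM is given with an exact 95% interval that covers counting error only. Of 11501 genes with at least 10 UMIs, 83 had an interval wholly above 2-fold (0.722%) and 3 one wholly under 0.5 (0.0261%), and the median ratio was 0.927. The genes named here are those with the highest lower limits, and they include a receptor, channels and secreted proteins of the vessel wall.

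EDNRB, the second endothelin receptor, was at 16 UMIs in 12 of the 59 nuclei and at 26 UMIs in the 1718 others, a ratio of 16.1 (8.07 to 31.2). Its level was 666 CPM in the 25 nuclei of the mural cluster, 260 in that cluster's other nuclei, 37.2 in the 34 pericyte-marker nuclei elsewhere, 45.7 in endothelial-like, 1.15 in adipocyte-like and 0 in progenitor-like nuclei. It was detected in 40% of the 25. EDNRB was detected in 5.73% of endothelial-like and 0.24% of adipocyte-like nuclei, and its level was highest in the mural cluster. By number, 13 of its UMIs lay in the 25 nuclei, 6 in the rest of that cluster, 3 in the 34 elsewhere and 18 in endothelial-like nuclei.

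Ion channel genes formed the next set. TRPC6, a receptor-operated cation channel, had 6 UMIs in 6 of the 59 nuclei and 6 in all others (ratio 26.2, 6.99 to 97.8). RYR2, a calcium release channel, had 5 against 3 (43.6, 8.48 to 281). KCNE4, a potassium channel subunit, had 5 against 6 (21.8, 5.26 to 85.7), and 0 of these in the 25 nuclei of the mural cluster. TRPC6 had 5 of its 6 UMIs in the 25 nuclei of the mural cluster and RYR2 3 of its 5. Each of these ratios rests on a handful of molecules, as its interval shows.

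Signalling and matrix genes were more abundant. ADAMTS4, a protease that cleaves proteoglycans, had 122 UMIs in 36 of the 59 nuclei against 640 in the others (ratio 4.99, 4.07 to 6.06). It stood at 1896 CPM in the 25 nuclei of the mural cluster, 2207 in the cluster's other nuclei and 1054 in the 34 elsewhere. Over all nuclei outside the rule it stood at 244, and in adipocyte-like nuclei at 128. RGS16, a regulator of G-protein signalling, had 47 against 225 (5.46, 3.90 to 7.51), with 512 CPM inside and 459 outside the mural cluster. EBI3, a cytokine subunit, had 8 against 15 (interval 5.12 to 35.1).

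Other genes chosen by this rule were FAM162B (10 UMIs against 16, ratio 16.3, 6.63 to 38.3), HOPX, a homeodomain protein that does not bind DNA (9 against 20, 11.8), BREH1 (24 against 81, 7.75), DAAM2, a formin of the Wnt pathway (16 against 52, 8.05), HAPLN3 and MTCL1 (5 against 8 each), SMTNL1 and TMEM200C (4 against 5 each), the carboxypeptidase gene CPM (9 against 26, 9.05), THBS4, CCL5, WFDC1, CADM3, PTGIR, TMEM132D and TMEM229B. Some of these rest on 1 or 2 nuclei: all 5 UMIs of THBS4, a matrix thrombospondin, came from 1 nucleus and all 9 of CCL5, a chemokine, from 2. CADM3, PTGIR, TMEM132D and TMEM229B had 2 UMIs against 0, for which no fold is given. WFDC1 had 4 UMIs in 4 nuclei against 0 in the others, with an exact lower limit of 17.3 for the ratio. THBS4, CADM3 and PTGIR each overlap another protein-coding gene, MTX3, ACKR1 and CALM3, and the strand setting of the counting is not given in the sources used here, so their UMIs are uncertain. Of the 25 genes so chosen, 19 stood at a higher level inside the mural cluster than outside it, and for 7 the interval of that ratio lay wholly above 1.

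**Figure D2:**
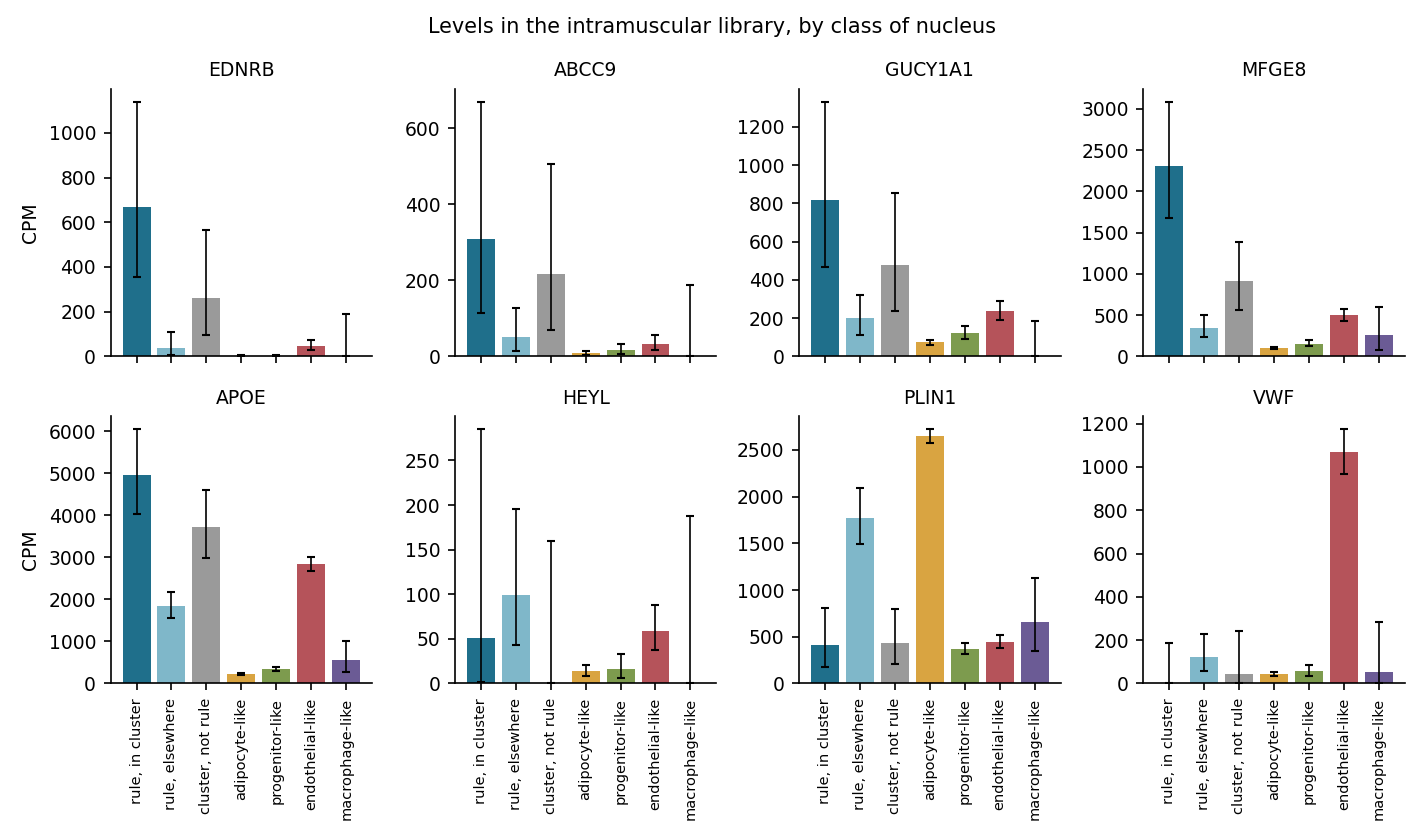
Level of 8 genes (CPM, with 95% Poisson intervals) in 7 classes of nuclei of the intramuscular library: pericyte-marker nuclei ("rule") inside and outside the mural cluster, the cluster's other nuclei, and the adipocyte-like, progenitor-like, endothelial-like and macrophage-like nuclei. EDNRB stands at 666 in pericyte-marker nuclei of the mural cluster and 37.2 in those elsewhere, and PLIN1 at 410 and 1774.

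Genes at lower levels in the intramuscular pericyte-marker nuclei included genes of lipid synthesis. CCN3, a matricellular protein, had 3 UMIs against 606 (ratio 0.13, 95% counting interval 0.0266 to 0.38). INSIG1, which restrains sterol synthesis, had 5 against 634 (0.21), and GPAM, which starts triglyceride synthesis, 47 against 2411 (0.51, 0.37 to 0.68). Of those 47 UMIs of GPAM, 1 came from the 25 nuclei of the mural cluster, and CCN3 had 0 there. GFPT2 (10 against 769, 0.34), C2CD4B (5 against 459, 0.28), EFNA5, an ephrin ligand (4 against 401, 0.26), PPP3CA, a catalytic subunit of calcineurin (3 against 337, 0.23) and SAT1, which acetylates polyamines (398 against 16750, 0.62), were lower too. NUDT2 and EIF2A had 0 UMIs against 237 and 162. Of the 18 adipocyte markers, 12 had an interval wholly under 1 and 0 wholly above it, against 1.92% and 4.06% of all genes.

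The same 25 higher genes were looked up in the subcutaneous libraries, which had no part in choosing them. In animal 1 the ratio was above 1 for 17 of 25, with the interval wholly above 1 for 11, and 8 genes had 0 UMIs in the 14 pericyte-marker nuclei. Over the 9591 named genes with a UMI in the intramuscular pericyte-marker nuclei these shares were 36.7% and 3.49%. In animal 2 the ratio was above 1 for 10 of 25, wholly for 3, and 14 genes had 0 UMIs in the 27 nuclei. The shares over the same 9591 genes were 39.3% and 6.36%, so the count of 10 was near the background. FAM162B had 2 UMIs against 8 in animal 1 (ratio 18.4, 1.90 to 92.2) and 3 against 23 in animal 2 (26.6, 5.10 to 87.9). EDNRB gave 49.1 (4.10 to 428) from 2 UMIs against 3 in animal 1, and had 0 UMIs in the nuclei of animal 2.

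**Figure D3:**
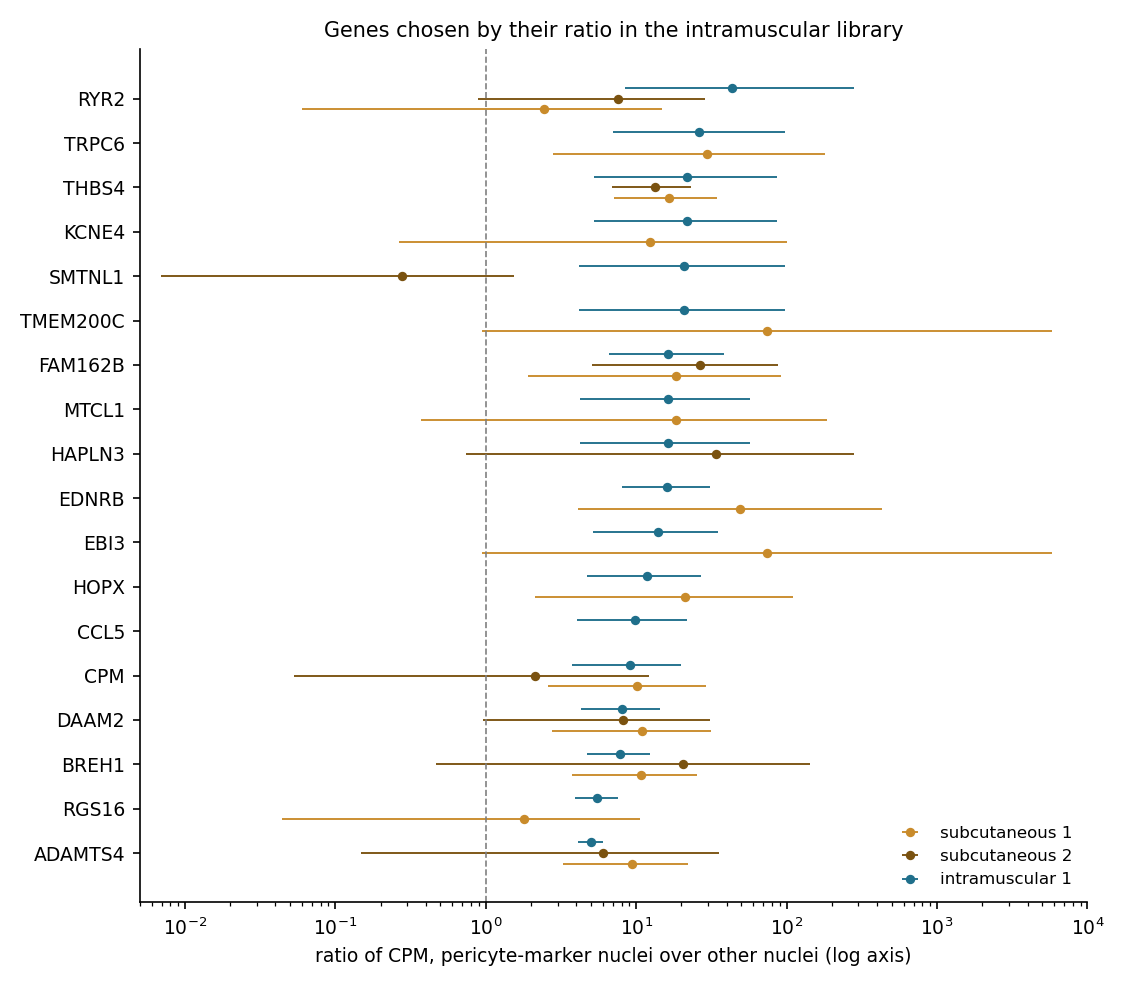
Ratio of CPM in pericyte-marker nuclei over the other nuclei of the same library (log axis), with 95% counting intervals, for the genes described from the intramuscular library with over 3 UMIs there and a finite ratio. A library with 0 UMIs of a gene in its pericyte-marker nuclei has no point; the dashed line marks 1.

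A fit over all 3 libraries asked which genes differed between the pericyte-marker nuclei and the other nuclei with the library as a block. UMIs were summed per library and kind of nucleus and tested with edgeR, and changes are log2 of pericyte-marker over other nuclei with the standard error (SE). Of 8922 genes, 35 were higher (0.392%) and 37 lower (0.415%) at an adjusted p under 0.05. The median change over all genes was -0.45, which DESeq2 size factors moved to -0.29 with 58 higher and 36 lower. Since the rule read its markers in the same nuclei, these calls are genes detected together with the markers. Of the 35 higher genes, 24 were higher in each of the 3 libraries and 11 had 0 UMIs in the pericyte-marker nuclei of subcutaneous animal 2.

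No gene was called without subcutaneous animal 1, with 38 called without animal 2 and 54 without the intramuscular library. Counting only nuclei inside the mural cluster gave 15 higher and 43 lower, and 40 of these 58 were among the 72 genes called with all pericyte-marker nuclei. Among the pathway lists described next, 0 genes were called higher without the intramuscular library. In simulated sums the fit over 3 libraries recovered 0% of 4-fold and 5.05% of 8-fold changes. A list gene that was not called may therefore still differ.

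A list of 23 other known mural genes had 22 in the files, of which 20 were tested. In it 5 were higher and 0 lower, and the median change was 0.75 against -0.45 over all genes. ABCC9, the partner of KCNJ8 in the potassium channel, had 10 UMIs against 40 in the intramuscular library, 11 against 41 in subcutaneous animal 1 and 6 against 263 in animal 2. It was higher in all 3, with a change of 2.30 (SE 0.59, edgeR adjusted p = 0.0227). COX4I2, a cytochrome oxidase subunit, had 16 against 80, 3 against 29 and 3 against 26 in the same order (2.41, SE 0.60, edgeR adjusted p = 0.0190). The transcription factor TBX2 had 8 against 37, 1 against 22 and 7 against 42 (2.63, SE 0.63, edgeR adjusted p = 0.0120). NDUFA4L2, a mitochondrial protein induced by low oxygen, and the metalloreductase STEAP4 were also called, each with 0 UMIs in the nuclei of subcutaneous animal 2. NDUFA4L2 and TBX2 overlap other genes, so their UMIs are uncertain. Members of this list that did not pass included CSPG4, the NG2 proteoglycan (0.90, SE 0.65), and MCAM (-0.31, SE 0.71). The 5 higher calls of this list became 2 without subcutaneous animal 2 and 2 inside the mural cluster. ABCC9 stood at 307 CPM inside the mural cluster and 49.6 in the 34 nuclei elsewhere, and TBX2 at 102 and 74.4.

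Receptors and channels followed. Among 19 tested ion channel genes of mural cells, 3 were higher and 0 lower, with a median of 0.90 against -0.45: TRPC6 (4.40, SE 0.90), KCNE4 (3.53, SE 0.96) and CACNA1D, a calcium channel pore (3.98, SE 0.98), with edgeR adjusted p of 0.000936, 0.0364 and 0.0157. CACNA1D had 3 UMIs against 5, 2 against 4 and 1 against 5 in the 3 libraries, so it was scarce everywhere, and it overlaps CHDH. Of 27 vasoactive receptor and RGS genes, 11 were tested and 1 was higher, EDNRB (3.69, SE 0.64, edgeR adjusted p = 7.2e-05), with a median of 1.12. In the intramuscular library RGS4 (12 UMIs against 57, ratio 5.51) and RGS6 (11 against 56, 5.14) had intervals wholly above 1, PTGER3, a prostaglandin receptor, one wholly under 1 (4 against 315, 0.332), and 13 of the 27 had 0 UMIs in the 59 nuclei.

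The nitric oxide and cGMP list had 0 of 12 genes called, with a median of 0.79. GUCY1A1, the alpha subunit that pairs with the rule gene GUCY1B1, had 32 UMIs against 286 in the intramuscular library (ratio 2.93, 1.96 to 4.23) and did not pass over the 3 libraries (1.56, edgeR adjusted p = 0.217). Its level was 820 CPM in the 25 nuclei of the mural cluster, 476 in that cluster's other nuclei and 198 in the 34 elsewhere. Over all intramuscular nuclei outside the rule it was 109, and in adipocyte-like nuclei 74.2. IRAG1, a target of the cGMP-dependent kinase, had 5 against 17 (7.69), while PDE5A, which breaks down cGMP, had 3 against 297 (0.264).

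In the Notch list 1 of 14 tested genes was higher, HEYL, a transcription factor known as a Notch target, and 0 were lower, with a median of -0.41 close to that of all genes. HEYL had 9 UMIs against 54 in the intramuscular library, 4 against 37 and 5 against 59 in the subcutaneous ones (2.24, SE 0.61, edgeR adjusted p = 0.0354). In the intramuscular library it stood at 51.2 CPM (1 UMI) inside the mural cluster and 99.2 (8 UMIs) outside, with 0 UMIs in the cluster's other nuclei. These counts are too few to tell whether HEYL followed the cluster. JAG1, a Notch ligand, had a ratio of 0.89 in the intramuscular library, and HES1, another target, one of 0.619 (0.381 to 0.953). In subcutaneous animal 2 both went the other way, JAG1 at 3.39 (1.45 to 6.72) and HES1 at 3.22 (1.60 to 5.80). Among PDGF and angiopoietin ligands and receptors 0 of 15 were called (median -0.17), and in the intramuscular library PDGFA had a ratio of 1.89 and VEGFA one of 1.73.

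Contractile genes of smooth muscle were not called in this fit, with 0 of 18 (median 0.19). In the intramuscular library 7 of 20 had intervals wholly above 1, among them TAGLN (4 UMIs against 11, ratio 9.51), LMOD1 (4 against 12, 8.72) and FLNA, an actin crosslinker (50 against 632, 2.07). In the subcutaneous libraries ACTA2 had ratios of 2.90 (1.43 to 5.27) and 4.03 (2.29 to 6.58), and CALD1 4.48 (2.97 to 6.52) and 8.74 (5.71 to 12.8). TPM1 and TPM2 went the other way there, with intervals wholly under 1 in both libraries. Basement membrane genes had 0 of 15 called (median -0.06): in the intramuscular library COL4A1, a chain of type IV collagen, had a ratio of 1.07 (0.934 to 1.23), SPARC one of 0.979, and AGRN 5.33 from 11 UMIs against 54. In the subcutaneous libraries COL4A1 was higher, at 3.06 (2.28 to 4.04) and 9.59 (6.27 to 14.1), and SPARC too, at 1.85 (1.29 to 2.57) and 4.06 (2.47 to 6.30). Integrin and adhesion genes had 0 of 16 called (median -0.17), with ITGA7, a laminin receptor chain, at 1.79 and CDH13 at 0.618 in the intramuscular library. TGF-beta and BMP genes had 0 of 20 called (median -0.38), with the ligand BMP5 at 4.06 from 18 UMIs against 116 there, 9.20 (3.22 to 21.5) and 7.73 (1.56 to 23.4) in the subcutaneous libraries.

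**Figure D4:**
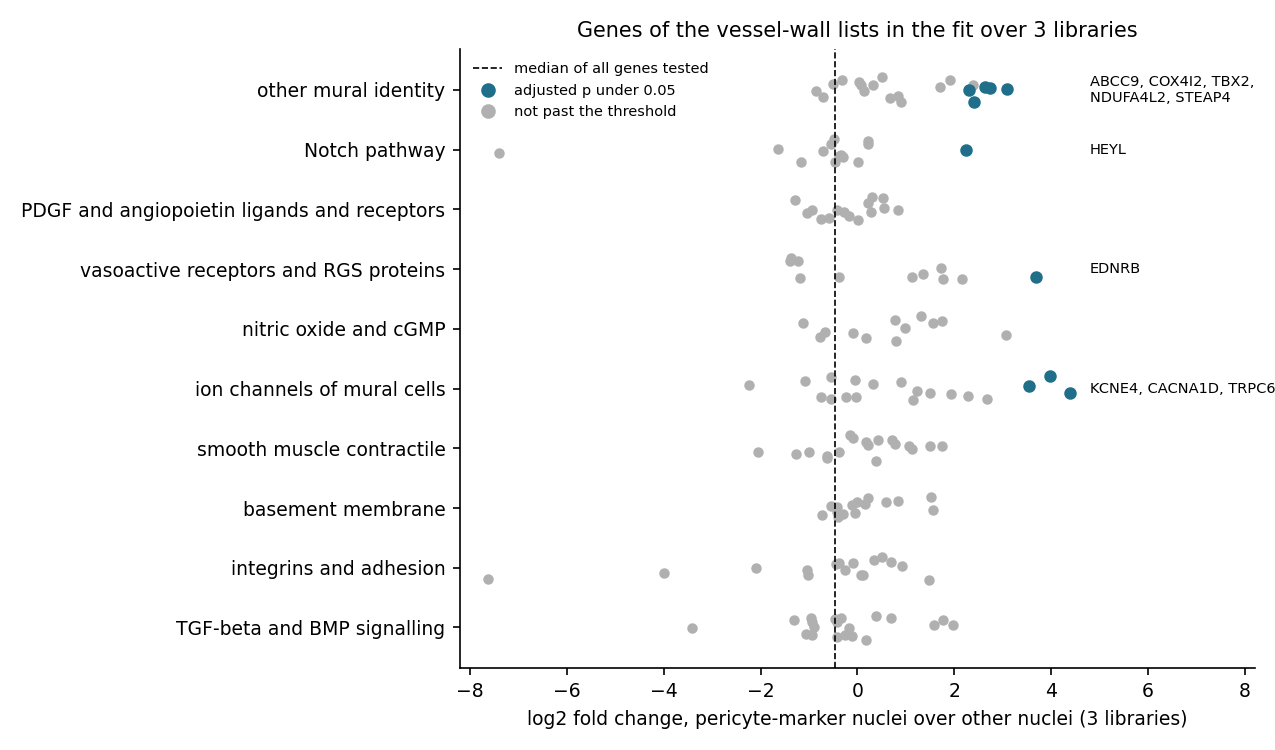
Log2 change of each tested gene in pericyte-marker nuclei over the other nuclei of 3 libraries, by gene list, with genes at an edgeR adjusted p under 0.05 in blue and a dashed line at the all-gene median of -0.45. The blue points, named at the right, are 5 genes of the mural identity list, 3 of the ion channel list, HEYL and EDNRB. The 2 points farthest left had 0 UMIs in pericyte-marker nuclei.

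Beyond the lists, APOE and MFGE8 were the most abundant of the higher genes. APOE, the apolipoprotein E of lipid transport, had 246 UMIs against 1746 in the intramuscular library, 68 against 369 and 6 against 200 in the subcutaneous ones (2.05, SE 0.56, edgeR adjusted p = 0.0362). MFGE8, a secreted bridge between cells and integrins, had 73 against 462, 19 against 196 and 13 against 232 (2.01, SE 0.54, edgeR adjusted p = 0.0338). MFGE8 was highest inside the mural cluster of the intramuscular library, at 2306 CPM. It stood at 347 in the 34 nuclei elsewhere, 176 over all nuclei outside the rule and 97.7 in adipocyte-like nuclei. APOE stood at 4970 inside that cluster against 1848 elsewhere and 2849 in endothelial-like nuclei. THBS4 (3.01, SE 0.61) and NR2F2, a nuclear receptor of venous vessels (2.01, SE 0.57), were higher in all 3 libraries, with edgeR adjusted p of 0.000936 and 0.0492.

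Of the 37 lower genes, 10 belong to the list of skeletal muscle fibre markers. All but ASB5 were more abundant in fibre-like nuclei of the subcutaneous libraries, and 31 had under 20 UMIs in the other nuclei of the intramuscular library, so that the calls of those 31 rest on the subcutaneous libraries. EIF2A, a translation factor, was also lower in the intramuscular library, at 0 UMIs against 162. MYH2, a fast myosin chain, fell by 2.89 (SE 0.67, edgeR adjusted p = 0.0071). Of the 18 fibre markers tested, 10 were lower (median -2.50), and of 17 adipocyte markers tested 0 were called (median -0.73).

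Pericyte-marker nuclei were next set against nuclei with at least 2 of the same markers that also carried MYH11 or CNN1 and none of the other excluded genes. These numbered 19 and 27 in the subcutaneous libraries and only 2 in the intramuscular one, so the subcutaneous libraries alone were used. Of 331 genes tested with edgeR, 0 were called higher (0%) or lower (0%), with 38 at an unadjusted p under 0.05 and 2, both lower, by DESeq2. In simulated sums this fit recovered 8.11% of 4-fold changes, so genes that were not called may still differ. The 4 smallest p belonged to SMTN, CKB, MYL9 and the unnamed feature ENSBTAG00000016486, which was printed after its values were seen and had 3 and 5 UMIs against 36 and 34. SMTN, the smooth muscle protein smoothelin, had 1 and 4 UMIs in pericyte-marker nuclei against 24 and 45 (-3.58, SE 0.50, edgeR adjusted p = 0.0883). MYL9, a myosin light chain, had 3 and 4 against 46 and 25 (-3.02, SE 0.50, edgeR adjusted p = 0.0919). CKB, a creatine kinase, had 0 and 0 against 28 and 29. The next smallest p was that of SPTBN1, also printed after its values were seen, which was higher, with 32 and 24 UMIs against 8 and 3 (2.62, SE 0.45, edgeR adjusted p = 0.0919). Since MYH11 or CNN1 defined the nuclei compared with, the lower genes are genes detected together with those 2.

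The last comparison set the intramuscular pericyte-marker nuclei against the subcutaneous ones. With 1 intramuscular library, its spread is assumed to be that of the subcutaneous pair, and the depot cannot be told apart from this library. Of 538 genes, 4 were higher in the intramuscular nuclei (0.743%) and 21 lower (3.9%) by edgeR, with 64 at an unadjusted p under 0.05. The median change was -0.11, and with DESeq2 size factors, which moved it to 0.16, 0 genes were called.

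The 4 higher genes are induced quickly by stress or growth signals. EGR1, an early response transcription factor, stood at 326 and 51.0 CPM in the subcutaneous nuclei and 2257 in the intramuscular ones (3.73, SE 1.09, edgeR adjusted p = 0.0246). FOSB, a subunit of the AP-1 transcription factor, stood at 392 and 51.0 against 2387 (3.60, SE 1.10, edgeR adjusted p = 0.0352). CXCL3, a chemokine, had 1 and 0 UMIs against 150 (edgeR adjusted p = 0.00648), and GADD45G, a stress sensor, 0 and 0 against 142, at least 7.24-fold higher. The other nuclei moved alike: EGR1 stood at 461 and 105 against 2113 in them and FOSB at 200 and 17.8 against 2544. All 4 genes differed in the same direction in the other nuclei of the same libraries.

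The 21 lower genes were all more abundant in fibre-like nuclei of both subcutaneous libraries, and all 21 were lower in the other intramuscular nuclei too. TNNC1, a troponin, had 14 and 35 UMIs in the subcutaneous pericyte-marker nuclei and 0 in the intramuscular ones, at least 30.5-fold lower. MB, the oxygen carrier myoglobin, had 8 and 55 against 0, at least 17.4-fold lower, and TNNT1 6 and 42 against 0, at least 13.1-fold. Among genes of the mural lists 0 were called between depots. Only 538 genes were tested there, and mural genes such as ABCC9 (11 and 6 UMIs) and EDNRB (2 and 0) were scarce in the subcutaneous nuclei. This count is therefore no sign that mural genes were alike in the depots. A smaller number of such nuclei and less RNA per nucleus cannot be told apart in these sums. No gene was called with no filter on low counts, with thinning to 500 UMIs or with at least 3 markers required.

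**Figure D5:**
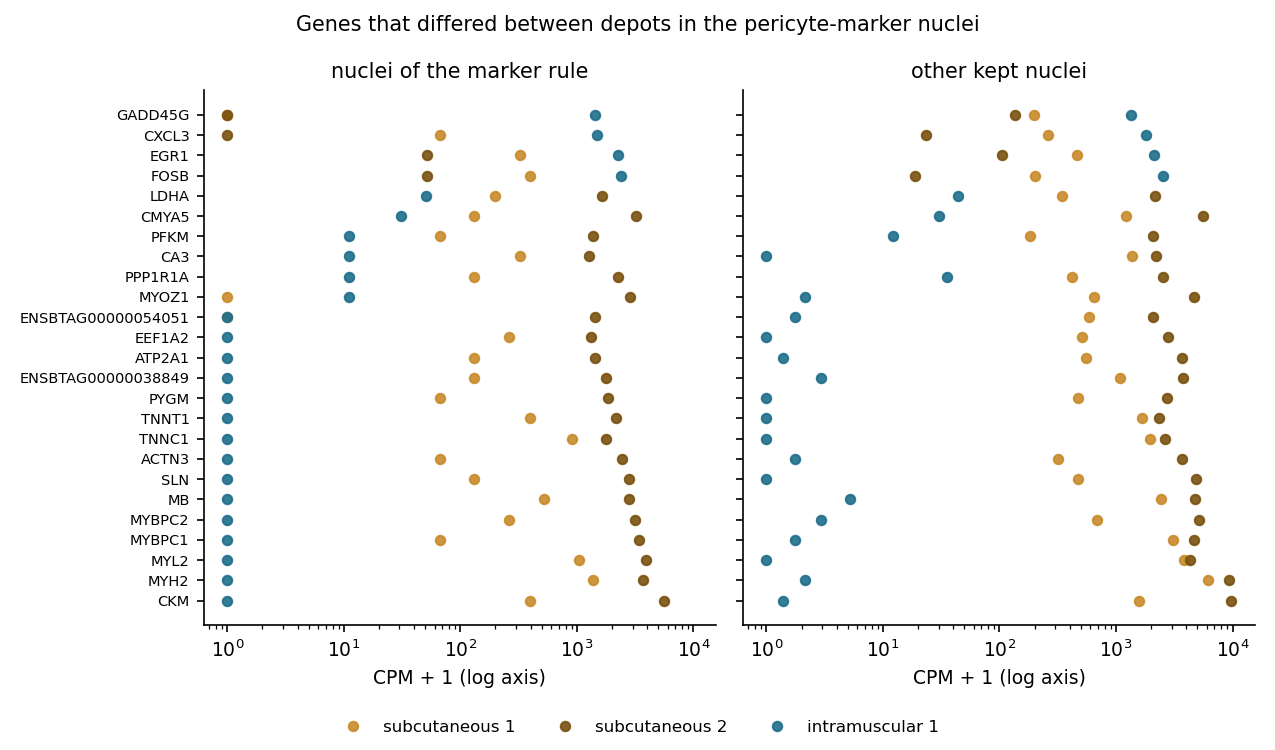
CPM plus 1 (log axis) of the 25 genes called between depots, in pericyte-marker nuclei (left) and in the other nuclei (right), with 1 point per library. In the left panel the depots are apart for all 4 higher genes and for 19 of the 21 lower ones, and in the right panel every gene lies in the same direction.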

How the data were processed

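The authors deposited 1 matrix of whole-number UMI counts for each library, made with Cell Ranger 6.0.1 per the file headers. The submitters' processing notes name the build ARS-UCD1.2, and the labels' protocols a 10x 3' kit of chemistry 3.1. Whether intronic reads were counted is not given in the sources used here. Of 21861 features, 4251 had no gene name. Gene names that overlap another gene were looked up in RefSeq's ARS-UCD2.0 table, another assembly, so no coordinates are given.

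Nuclei with at least 200 detected genes were kept. No doublets were removed. Each library was clustered with scanpy 1.11.5 and igraph 0.11.9 (2000 variable genes, 30 principal components, 15 neighbours, Leiden resolution 1.0), and a cluster was named from at least 3 markers among its 100 leading genes. UMIs were summed per library and class. Sums were tested with edgeR 4.0.16 (filterByExpr, TMM, quasi-likelihood F test, the library as block where each library held both classes) in R 4.3.3, with Benjamini-Hochberg adjustment and a threshold of 0.05. The SE is the absolute log2 change over the square root of F. The scripts were tested on simulated sums with known changes of 4-fold and 8-fold. The fit against other nuclei recovered 0% and 5.05% of them, and the fit against MYH11 or CNN1 nuclei 8.11% and 61.2%. The fit between depots recovered 40.9% and 71.4%. Ratios within a library have exact conditional 95% intervals, levels Poisson and shares Clopper-Pearson ones, which do not hold biological spread. The limit for a count of 0 is 3 counts.

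Named genes were the 25 with the highest lower limit and the 10 with the lowest upper limit (at least 50 UMIs) in the intramuscular library, the called or smallest-p genes of the other comparisons, list members past the threshold, the 3 most counted members of each list, and the 13 genes of the rule. Some genes that this rule names are not reported here. APOE, MFGE8, NR2F2, MYH2, PLIN1, VWF and list members outside these were chosen after their values were seen. The members and lists were chosen with earlier results of these data known. The block pairs the classes of nuclei by library, since both come from the same animal and tissue. Alternatives were other filters on genes and nuclei, DESeq2 1.42.0, thinning to 500 UMIs, no block, cluster membership and leaving out libraries.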

Additional observations from a re-analysis of the deposited data

Results flagged for a closer look

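TPM1, a tropomyosin of contractile cells and also a gene of skeletal muscle fibres, moved in opposite directions in the 2 depots. In the intramuscular library its ratio of pericyte-marker over other nuclei was 1.16 (95% counting interval 1.00 to 1.33, 207 UMIs against 4685). In the subcutaneous libraries it was 0.51 (0.31 to 0.79, 20 against 2889) in animal 1 and 0.63 (0.54 to 0.72, 214 against 69589) in animal 2. The difference between depots was not tested. TPM1 stood at 6230 and 20987 CPM in the fibre-like nuclei of the subcutaneous libraries, and the part of fibre RNA in this pattern was not tested.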

How the results depend on the processing

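Against the other nuclei of 3 libraries, 72 genes were called (35 higher, 37 lower). No filter on low counts left 42 (16 higher), the DESeq2 test 28 (2 lower), and nuclei with at least 500 genes 23 (20 higher, 3 lower). Higher genes numbered 58 with DESeq2 size factors, 19 with at least 3 markers, 15 inside the mural cluster and 20 after thinning. Leaving out 1 library gave 0 to 54 called, 0 to 27 higher and 0 to 44 lower. Without the replicate block, which pairs the 2 kinds of nuclei by library, 0 were called in this comparison and 0 against the MYH11 or CNN1 nuclei.

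Against the MYH11 or CNN1 nuclei, where 0 were called, no filter gave 10 (2 higher, 8 lower), the DESeq2 test 2 (2 lower) and thinning 25 (9 higher, 16 lower). Between depots, no filter, DESeq2 size factors, at least 3 markers and thinning each gave 0 called, 0 higher and 0 lower. The DESeq2 test gave 0 higher and 26 lower, nuclei with at least 500 genes 2 higher, and the mural cluster 11 (2 higher, 9 lower). In the intramuscular library, genes above 2-fold numbered 142 inside the mural cluster. Genes under 0.5 numbered 10 with at least 3 markers, 1 after thinning, 1 in nuclei without 2 adipocyte or fibre markers and 29 inside the mural cluster. The difference in share was 1.73 to 2.88 points without 1 subcutaneous library. Of these changes the cause was not tested.

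Of the single-gene checks against other nuclei, 745 kept direction and stayed either called or not called, 375 kept direction only, 4 newly passed and 4 moved. The 745 include genes called in neither setting: without the replicate block 28 checks were so counted, though 0 genes were called there. Between depots 36 kept their call and 49 lost it, in the same direction. Of the intramuscular ratios 116 stayed within their counting interval and 48 moved outside it. Not run, for want of nuclei or residual degrees of freedom, were nuclei without adipocyte or fibre markers in the 3 fits, the stricter rules against MYH11 or CNN1 nuclei, and leaving out libraries there and between depots. No paired analysis was possible between depots because the intramuscular library of animal 2, with 2 such nuclei, was not used.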
